A study of Ovis aries with 6 samples.

Results

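The miR-378 family was examined in small RNA libraries of sheep longissimus muscle, the long muscle of the back. Members were taken by name, as miR-378, miR-378a to miR-378e and miR-3557, with or without an arm (5p or 3p, the side of the hairpin precursor from which a mature miRNA is cut). The rule found 8 names of 10430 in the table, which stood on 48 of its 11161 rows and held 38 distinct sequences. Of the 7 name stems, 6 had a row, and plain miR-378 had none. Sheep of the breed Qianhua Mutton Merino (QHMM) gave 3 libraries and sheep of the breed Small Tail Han (STH) gave 3, all raised under natural conditions and sequenced on an Ion Proton instrument. The labels called them replicates of a breed, gave no age or sex, and did not say that each came from its own animal, so p-values measure only the spread between these libraries.

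In mammals, miR-378a is cut from a hairpin in an intron of PPARGC1B, the gene of the metabolic coactivator PGC-1β. It is abundant in skeletal muscle, heart and brown fat. In mice, both arms of this hairpin are known as regulators of mitochondrial energy use and lipid handling, and the 3p arm also acts in myoblast differentiation. A miRNA finds its targets mainly through its seed, bases 2 to 8 from the 5′ end, so members that share a seed can share targets.

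The sequences of the 6 names with the most counts are shown because names and letters did not always match. They are the deposited mature sequences, 5′ to 3′, with the seed in capitals.
miR-3557-5p row, carrying the miR-378a-3p sequence: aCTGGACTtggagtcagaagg
miR-3557-3p row, carrying the miR-378a-5p sequence: cTCCTGACtccaggtcctgtg
miR-378b: tGGACTTGgagtcagaa
miR-378c: aCTGGACTtggaatcagaaga
miR-378d: aCTGGATTtggagtcagaaagc
miR-378e: aCTGGACTtggagtcagga
Both leading rows came from 1 predicted hairpin on chromosome 5 of the sheep build Oar_v3.1, the first as its mature arm and the second as its star arm, and both bore the rat name miR-3557. The first row is letter for letter the sequence that the table also lists under the rat name miR-378a-3p. Its 21 nt are called the miR-378a-3p sequence from here on.

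The rat's own miR-3557-5p stood on another row, shown here because it is the opposite strand.
miR-3557-5p of rat: gCCTTCTGactccaagtccagt
miR-378a-3p sequence, reverse complement: ccttctgactccaagtccagt
The rat row held this reverse complement with 1 further base at its 5′ end, and it had 6 counts over the 6 libraries. The sheep row named miR-3557-5p therefore carried the other strand of the miRNA it was named after.

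The most counted rows of the remaining names differed from the miR-378a-3p sequence at few bases. These are counted here from 1 at its 5′ end, with its own base first. miR-378c differed by G13A and G21A, both outside the seed. The most counted miR-378d row differed by C7T and G20A, and the change at base 7 gave it a seed of its own. The human row of that name, with 51 counts, differed by G20A only and kept the seed of the leading row. miR-378e, whose most counted row is the human miRNA listed without a sheep locus, differed by A18G and ended after 19 nt. The row that stood for miR-378b had no base change and was bases 3 to 19 of the miR-378a-3p sequence, 17 nt long, so that its seed was displaced by 2 positions. By their letters, the leading miR-3557-5p row, miR-378c and miR-378e shared the seed CTGGACT, whereas miR-378b, miR-378d and the 5p arm each had another.

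The miR-378a-3p sequence dominated the family. Its row had 181491, 155600 and 168164 counts in QHMM libraries, against 228766, 175492 and 161599 counts in STH libraries. As CPM, counts scaled to a library total of 1000000 over 1 row per name, these were 24049, 27921 and 22594 CPM in QHMM and 31246, 28430 and 20378 CPM in STH. The highest and the lowest library were both STH, and the QHMM values lay between them. The row ranked 6th of all names by mean CPM, and 6th or 7th in each library. In bulk tissue of this kind, fewer cells of a type and less RNA per cell cannot be told apart.

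Over all 48 rows, the family took 1.97%, 2.09% and 1.83% of the counts in QHMM libraries, against 2.50%, 2.18% and 1.59% in STH libraries. The leading row held 89.6% to 93.1% of these family counts. Library totals over all rows were 8062231 to 10276427 counts in QHMM and 8681817 to 11282332 counts in STH.

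The names miR-378a-3p and miR-378a-5p were nearly empty. The row named miR-378a-3p, with the same letters as the leading row, had 0, 1 and 1 counts in QHMM and 1, 2 and 1 counts in STH. The row named miR-378a-5p, which is the miR-3557-3p row with 1 more base at its 3′ end, had no count in QHMM and 1 count in STH, in replicate 3. A limit of 3 counts corresponds to 0.398 to 0.538 CPM in QHMM libraries and to 0.378 to 0.486 CPM in STH libraries. A search of the table by the name miR-378a-3p would thus have met 6 counts, although the table held 1071112 counts of the same sequence under another name. None of the 153 rows with a sheep name had a member name or the seed CTGGACT.

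**Figure D1:**
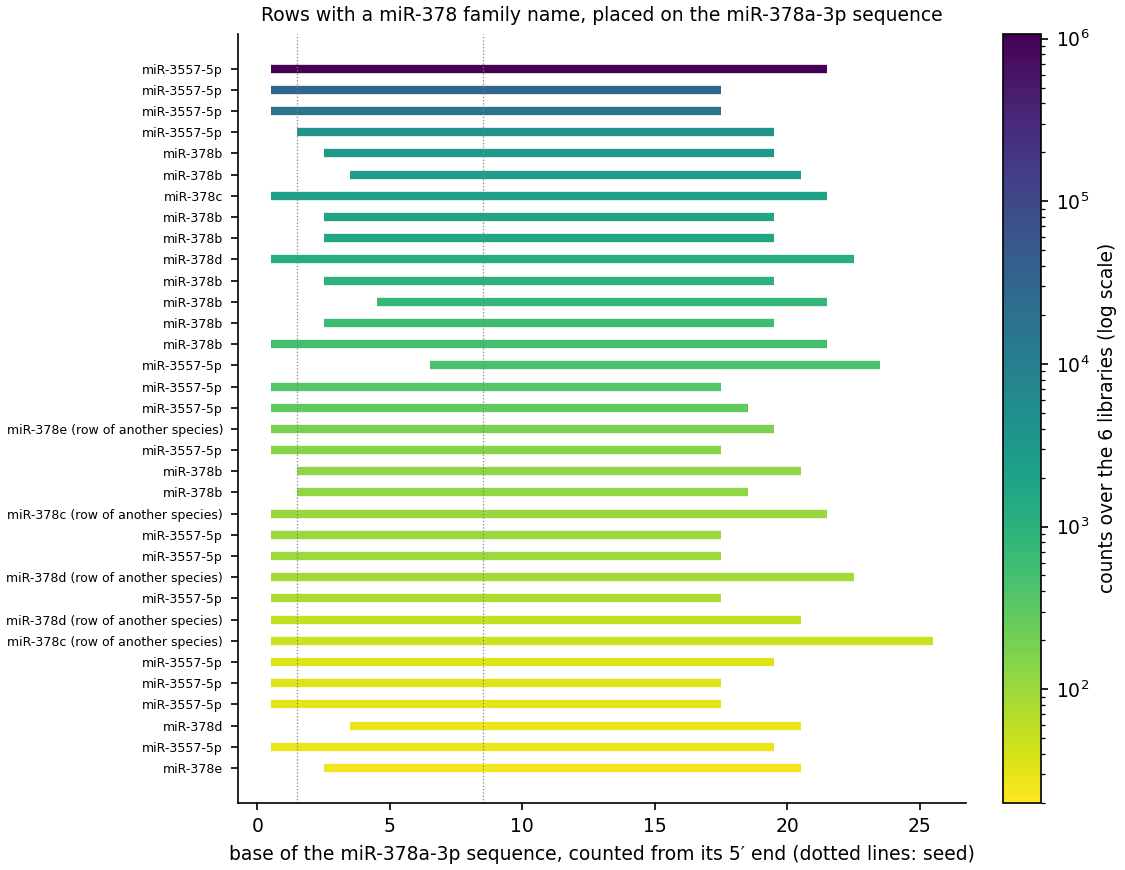
Rows with a member name that aligned to the miR-378a-3p sequence and had at least 20 counts (34 of 48 rows), each drawn as a bar from its first to its last base on that sequence, ordered and coloured by counts over the 6 libraries on a log scale. Mismatches are not drawn. The full sequence lies on top with 1071112 counts, and the next rows are stretches that end at base 17.

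Shorter stretches of the same sequence, the main miR-378b rows among them, made up most of the rest of the 3p arm. They stood on 10 rows of 17 or 18 nt and held 4.24% to 6.44% of the family counts. The most counted stretch is shown because it keeps the seed and lacks the last 4 bases.
Shorter stretch, 17 nt: aCTGGACTtggagtcag
This stretch was listed at a locus on chromosome 2 with 31001 counts and again at a locus on chromosome 11 with 15905 counts. The stretch named miR-378b was listed 5 times, at 3 loci on chromosome 7 and at 1 locus each on chromosomes 9 and 16. These 5 rows, with identical letters, had 3006, 1775, 1747, 965 and 600 counts. Identical sequences thus received unequal counts. How reads with several matches were shared among loci is not given in the sources used here, and the loci of such stretches were not told apart.

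As a percentage of the leading row in the same library, the 10 shorter stretches together made up 6.74%, 5.57% and 6.31% in QHMM, against 4.55%, 4.93% and 7.13% in STH. The breeds overlapped, with STH replicate 3 highest and STH replicate 1 lowest. This measure was chosen after the rows had been seen and is given as a description.

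Rows with 1 mismatch to the miR-378a-3p sequence were the most numerous, 24 in all, but held only 0.172% to 0.280% of the family counts. Rows with 2 or more mismatches, the most counted rows of miR-378c and miR-378d among them, held 0.265% to 0.343%. In all, 37 member rows were predicted loci on 20 chromosomes. The other 11 rows were miRNAs of rat, mouse or human listed without a sheep locus and had 529 counts in total.

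Among sequences of any name, 29 rows with 24 distinct sequences had the seed CTGGACT. They held 1122891 counts, which placed this seed 8th of 6007 seeds with a count, and 95.4% of them fell on the leading row. Only 20 of the 29 rows had a member name. The 3 most counted of the others were unnamed predicted loci on chromosomes 23, 15 and 16, with 317, 127 and 124 counts over the 6 libraries.

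The minor names of the 3p arm stood at small percentages of the leading row, which for miR-378b, miR-378c and miR-378d varied less than their CPM. miR-378c had 47.0, 49.5 and 41.2 CPM in QHMM libraries, against 60.8, 50.1 and 46.8 CPM in STH libraries. Its counts were 0.176% to 0.230% of the leading row. miR-378d had 27.3, 30.5 and 23.5 CPM in QHMM, against 33.9, 30.5 and 26.9 CPM in STH, or 0.104% to 0.132% of the leading row. For both names QHMM replicate 3 was the lowest library and STH replicate 1 the highest, and the breeds overlapped.

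miR-378b had 69.0, 90.3 and 53.6 CPM in QHMM, against 82.1, 76.3 and 64.4 CPM in STH. It made up 0.237% to 0.323% of the leading row, with both its highest and its lowest library in QHMM. miR-378e had 34, 25 and 27 counts in QHMM, against 35, 23 and 36 counts in STH, so its 0.0131% to 0.0223% of the leading row rested on few counts. The coefficient of variation of the percentage over the 6 libraries was 8.91% for miR-378d, 10.3% for miR-378c and 11.7% for miR-378b, against 12.6%, 13.1% and 18.0% for the CPM of the same names. For miR-378e it was 18.8%, against 11.2% for its CPM. With 23 to 36 counts per library, whether this name followed the leading row could not be told. Whether these reads came from separate loci or from the miR-378a-3p sequence itself was not tested.

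**Figure D2:**
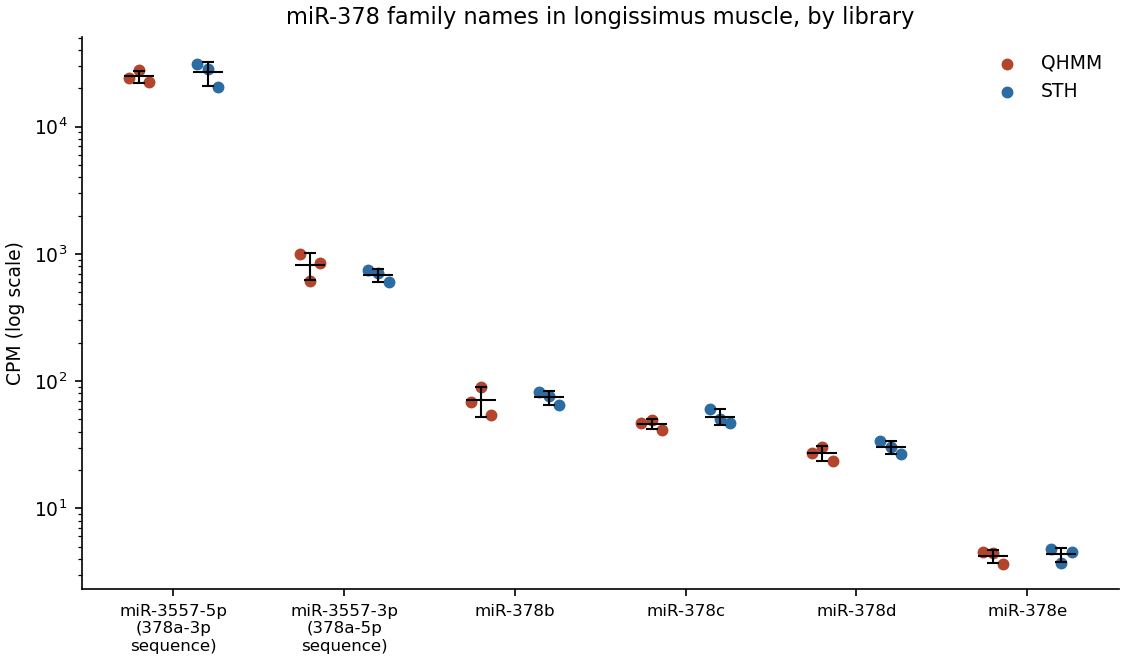
CPM of the 6 member names with the most counts in each library, on a log axis, with QHMM left and STH right of each name; points are libraries, and black marks are the mean and SD of 3 libraries. The leading name averaged 24855 CPM in QHMM and 26685 CPM in STH, and the breeds overlap for every name.

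**Figure D3:**
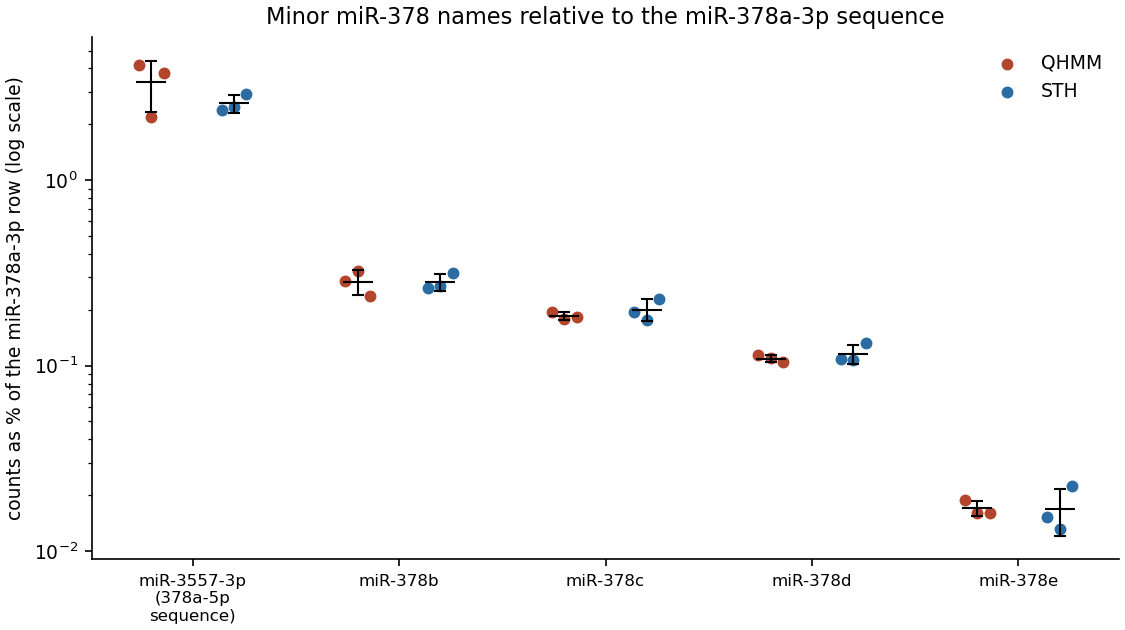
Counts of the 5 minor member names as a percentage of the miR-378a-3p row in the same library, on a log axis, with QHMM left and STH right; points are libraries, and black marks are the mean and SD of 3 libraries. miR-378d stays within 0.104% to 0.132%, whereas the 5p arm under the name miR-3557-3p ranges over 2.18% to 4.16%.

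The 5p arm, known in mice for a role of its own in energy metabolism, varied more. Its row, named miR-3557-3p, had 1000.2, 608 and 851 CPM in QHMM libraries, against 743, 701 and 597 CPM in STH libraries. QHMM replicate 1 was the highest and STH replicate 3 the lowest, and QHMM replicate 2 lay close to that lowest library. The ratio of the 3p row to the 5p row was 24.0, 45.9 and 26.6 in QHMM, against 42.0, 40.6 and 34.2 in STH. In QHMM, 2 libraries lay below all STH libraries and 1 lay above them.

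The mean log2 ratio of the arms was 0.33 lower in QHMM than in STH (log2 difference -0.33), which did not pass a two-sided exact permutation test (p = 0.40, adjusted p = 0.60 over 3 ratios tested). With 3 libraries against 3 this test cannot give a p below 0.10. Without QHMM replicate 2 the difference was -0.62, and without QHMM replicate 1 it was -0.15.

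Relative to miR-1, the main miRNA of muscle fibres, the miR-378a-3p row stood at 0.0709, 0.0666 and 0.0664 in QHMM, against 0.0989, 0.0747 and 0.0511 in STH. The 3 QHMM ratios were close to each other, and the STH ratios lay on both sides of them. The log2 difference was -0.09 (two-sided exact permutation test, p = 0.70, adjusted p = 0.70), and it turned to 0.14 without STH replicate 1. Relative to miR-133, another miRNA of muscle fibres, the ratio was 0.152, 0.311 and 0.155 in QHMM, against 0.331, 0.306 and 0.206 in STH. The log2 difference was -0.50 (two-sided exact permutation test, p = 0.30, adjusted p = 0.60), with QHMM replicate 2 apart from the other 2 QHMM libraries.

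**Figure D4:**
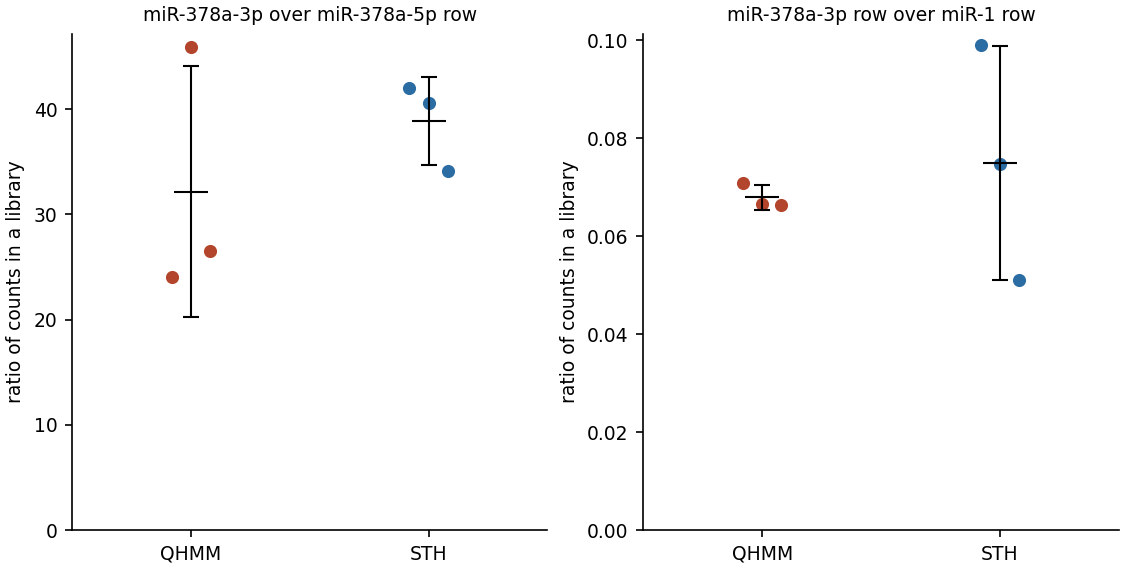
Ratio of the miR-378a-3p row to the miR-378a-5p row (left panel) and to the miR-1 row (right panel) in each library, from an axis that starts at 0; points are libraries of QHMM (left) and STH (right), and black marks are the mean and SD of 3 libraries. QHMM replicate 2, at 45.9, stands apart from the other QHMM libraries in the left panel, and the STH libraries spread from 0.0511 to 0.0989 in the right panel.

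The breed comparison asked whether the muscles of the sheep breeds differed in these miRNAs. No member passed the test of edgeR, a quasi-likelihood test of counts with Benjamini-Hochberg adjustment over the 1274 names with enough counts. Of the 8 members, 6 were tested, and 0 had an adjusted p under 0.05, beside 2.2% of all names tested (0.314% called higher and 1.88% called lower in QHMM). None had an unadjusted p under 0.05 either, beside 13.7% of all names, and DESeq2 also called 0. No tested member had breeds that did not overlap in CPM, beside 17.2% of all names.

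The miR-378a-3p row averaged 24855 ± 2753 CPM in QHMM and 26685 ± 5641 CPM in STH (SD, n = 3 each). Its log2 fold change, QHMM over STH, was -0.10 (SE 0.22) with an edgeR adjusted p of 0.885. The 95% interval ran from -0.58 to 0.39, or a fold of 0.668 to 1.31, so no difference and a difference of any size within that interval could not be told apart. On data simulated for this comparison with 1200 names, 24.0% of names changed by 2-fold were called and 88.8% of those changed by 4-fold. These percentages are over names of all levels and are not those of the miR-378a-3p row. The median SE over all names tested was 0.39.

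The 5p arm had the largest estimate in size, 0.24 (SE 0.24), with an interval of -0.28 to 0.76 and an edgeR adjusted p of 0.706. It averaged 820 ± 198 CPM in QHMM and 680 ± 75.4 CPM in STH (SD, n = 3 each), and was the only tested member with a positive estimate. The other 4 tested names had estimates of -0.19 for miR-378c, -0.16 for miR-378d and -0.05 for both miR-378b and miR-378e. Their edgeR adjusted p-values lay between 0.794 and 0.959. The median over the 6 members was -0.08, beside 0.03 over all names tested.

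With 1 row for each distinct sequence in place of each name, 23 member sequences were tested. Of these edgeR called 0, beside 27 called over all sequences in this fit and 2.2% of all names in the fit by name. Estimates of the member sequences ran from -0.28 to 0.32, with 16 lower and 7 higher in QHMM by sign. Many of them are stretches or near copies of the miR-378a-3p sequence, so their signs are not separate observations. Of the 23, 0 had an unadjusted p under 0.05, beside 13.7% of all names in the fit by name. The 17-nt stretch printed above was estimated at 0.26 and the full miR-378a-3p sequence at -0.11 in the fit by sequence. The difference between these estimates was not tested.

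**Figure D5:**
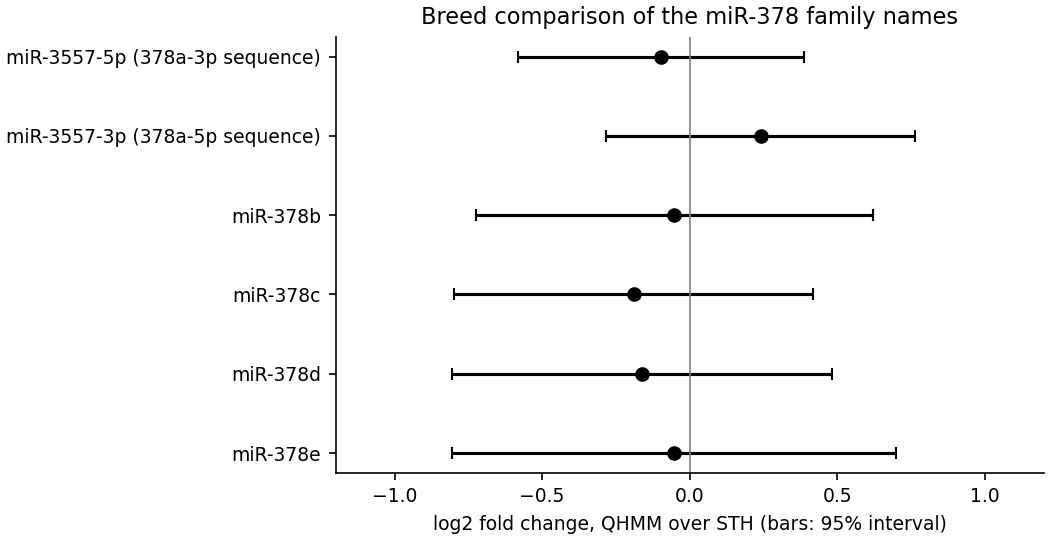
Log2 fold change, QHMM over STH, of the 6 member names tested, as points with 95% intervals from edgeR; the grey line marks no difference. All 6 intervals span 0, and the estimates lie between -0.19 and 0.24.

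The tissue was muscle by its miRNAs in both breeds. The summed level of 7 muscle fibre miRNAs was 517837 to 546403 CPM in QHMM and 450151 to 536375 CPM in STH, whereas miR-122, the liver marker, was at 0.537 to 2.15 CPM in QHMM and 1.78 to 3.55 CPM in STH. The 3 red blood cell miRNAs summed to 18885, 19771 and 83743 CPM in QHMM, against 7181, 13702 and 8453 CPM in STH. This sum was almost all miR-451-5p, with 18703, 19640 and 82384 CPM in QHMM and 7083, 13597 and 8335 CPM in STH. miR-144-3p of the same list had 157, 109 and 1329 CPM in QHMM and 72.8, 86.3 and 104 CPM in STH. miR-451-5p and miR-144-3p did not overlap between breeds, beside the 17.2% of all names. miR-486, also of this list, overlapped, at 24.5, 22.6 and 30.6 CPM in QHMM and 25.4, 19.0 and 13.1 CPM in STH. The 4 leukocyte miRNAs summed to 1552 to 1815 CPM in QHMM and 1060 to 1321 CPM in STH, but their log2 fold changes had both signs, from 1.03 for miR-142-3p to -0.35 for miR-155-5p, with a list median of 0.03. Of these 4, only miR-142-3p did not overlap between breeds, beside the 17.2% of all names. miR-126, of endothelium, was at 9966 to 22831 CPM in QHMM and 18717 to 20414 CPM in STH, and 2 smooth muscle miRNAs summed to 32381 to 44453 CPM in QHMM and 40105 to 52838 CPM in STH. Of these marker miRNAs, 0 of 3 for red blood cells, 0 of 4 for leukocytes and 1 of 7 for muscle fibres (miR-208b-3p) passed the edgeR test. Over all names tested 2.2% passed, and lists this short cannot be told apart from that share. The part of these cells in the levels of the miR-378 family was not tested.

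CPM depends on the other miRNAs of a library. Leaving miR-1 and miR-451 out of the total, the miR-378a-3p row stood at 37448, 49782 and 39135 CPM in QHMM, against 46149, 46941 and 34354 CPM in STH. QHMM replicate 2 was then the highest library, and the breeds still overlapped.

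The names whose profile over the 6 libraries was most like that of the miR-378a-3p row were miR-26a, miR-3586-3p, miR-3589, miR-27a and miR-145-5p. Likeness was the root mean square difference of log2 CPM, each name centred on its own mean. It was 0.09, 0.11, 0.12, 0.12 and 0.13 for these names, beside a median of 0.35 over 151 candidates of at least 100 CPM. miR-26a, tied to insulin action in the liver of mice, had 34687, 39851 and 34719 CPM in QHMM, against 46972, 43599 and 35197 CPM in STH. Like the miR-378a-3p row, it was highest in STH replicate 1. The 6 libraries share their totals in every name, so this order is a description.

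Within the family, the same measure was 0.11 for miR-378d, 0.13 for miR-378c, 0.15 for miR-378b and 0.24 for miR-378e. It was 0.35 for the 5p arm, as far from the leading row as the median candidate, although both arms come from 1 hairpin.

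Among 29 other miRNAs tied to energy metabolism of muscle, fat or liver, 28 had a row and 24 were tested, with a median log2 fold change of 0.24. Only miR-208b-3p, encoded in an intron of the slow myosin gene MYH7, passed the edgeR test, beside the 0.314% of all names that were called higher in QHMM, and 0 were called lower. It had 142, 109 and 189 CPM in QHMM, against 57.9, 65.9 and 56.9 CPM in STH, a log2 fold change of 1.27 (SE 0.29, adjusted p = 0.0419). All QHMM libraries lay above all STH libraries. The direction held under 15 alternatives, but only 6 of them gave an adjusted p under 0.05. The call was lost with a replicate block (adjusted p = 0.0719) and when any library other than QHMM replicate 1 was left out (adjusted p of 0.0557 to 0.184). The 3 most abundant miRNAs of this list were miR-26a, miR-143 and miR-30c, with means of 39171, 11923 and 11839 CPM over the 6 libraries. Their edgeR estimates of -0.20, -0.22 and 0.27 did not pass.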

How the data were processed

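The authors deposited raw counts per mature sequence for 6 libraries. Of their methods, the build (Oar_v3.1) and the use of DESeq come from the submitters' processing notes. The aligner and miRNA caller were not given in the sources used here. Names were cut free of locus and species, and each name was represented by its most counted row. CPM used totals of 5572865 to 7930202 counts over these rows. Breeds were compared with edgeR 4.0.16 (R 4.3.3; TMM factors, filterByExpr, robust quasi-likelihood fit, adjusted p under 0.05), which was tested on simulated data, and with DESeq2 1.42.0 as an alternative. Ratios within a library were compared by exact permutation. Counts are of reads, not molecules, and intervals on counts would cover counting error only. No pair of replicates agreed within sampling noise (lowest chi-square per degree of freedom 102.6, for STH replicates 2 and 3).

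Named were every member, the 5 names most like the leading one that shared no run of 15 nt with it, the 3 most counted non-members with its seed and, of the metabolic list, those called and the 3 most abundant. The members and lists were chosen with earlier results of these data known. The miR-1 row was taken by sequence, as its main row bears the rat name miR-1b (15252614 counts), after the row named miR-1-3p was found to hold 16169 counts. No sheep genome was used, so loci are given by chromosome only. Alternatives were other factors, filters, tests, row choices, a replicate block and each library left out.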

Additional observations from a re-analysis of the deposited data

How the results depend on the processing

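The 6 members tested gave 90 values under 15 alternatives. None passed the threshold (lowest adjusted p 0.562), and they ran from -0.38 to 0.35 on the log2 scale. The miR-378a-3p row kept its sign in all 15, from -0.29 to -0.0017, both ends with a library left out. The sign of miR-378b turned with no filter on low counts (0.027) and in 3 fits without a library (-0.38 to 0.10 over these fits), and that of miR-378e turned with no filter (0.027) and in 1 fit without a library (-0.19 to 0.027). The arm ratio kept its sign in 8 of 8, from -0.62 to -0.15. The ratio to miR-1 was -0.34 to 0.14 with a library left out, and 0.49 (exact permutation p = 0.30) against the row named miR-1-3p, an alternative chosen after seeing the data.

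Over all names, the 28 called became 64 with no filter, 8 with at least 10 counts in every library, 49 with DESeq2, 6 with known names only (fewer names tested) and 16 to 35 with a library left out, lowest without QHMM replicate 3 or STH replicate 3 and 18 without STH replicate 2. The cause was not tested. With a replicate block, 26 names were called, the miR-378a-3p row was at -0.09 and the arm ratio at -0.33 (exact sign-flip p = 0.50). Libraries of the same number correlated at 0.06, 0.24 and 0.12 in their deviations from the breed means, so the numbers were not taken to pair them, although each correlated best with its own number. The block changed no call of a member, but that of miR-208b-3p was lost (adjusted p = 0.0719). It was also lost with upper-quartile factors, 10 counts in every library and known names only (adjusted p = 0.0618 to 0.0778). The signs of miR-3589 and miR-27a turned in 1 fit each without a library. Over all fits with a library left out, their values were -0.23 to 0.037 and -0.21 to 0.022. The mean level of the miR-378a-3p row was 18552 CPM on totals over all rows and 42302 CPM without miR-1 and miR-451.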

Other observations

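The table also held miR-378 names with the letters f to j, which the rule does not take. miR-378i was the most counted of them, at a locus on chromosome 18.
miR-378i: gCTGACTCctagtccagtgc
miR-378a-3p sequence, reverse complement: ccttctgactccaagtccagt
Read along the reverse complement, counted from its 5′ end, the miR-378i row differed by T4G and A13T over 18 shared bases. The row also ran past the 3′ end of that sequence, so it resembled the other strand without matching it. Whether this row is a miRNA of the family was not tested. It had 1706, 1448 and 1257 CPM in QHMM libraries, against 918, 715 and 1150 CPM in STH libraries. The breeds did not overlap, as in 17.2% of all names tested when both directions are counted, with the nearest pair at 1257 CPM in QHMM and 1150 CPM in STH. The log2 fold change was 0.67 (SE 0.24), which did not pass the edgeR test (adjusted p = 0.225, unadjusted p = 0.0161). Its likeness to the miR-378a-3p row was 0.54, farther than the 5p arm at 0.35.

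The miR-378g row, at a locus on chromosome X, differed from the miR-378a-3p sequence by A6G and G21A.
miR-378g: aCTGGGCTtggagtcagaaga
It had 73.9, 77.3 and 59.8 CPM in QHMM libraries, against 95.1, 86.0 and 68.9 CPM in STH libraries, and its breeds overlapped. The log2 fold change was -0.24 (SE 0.29, edgeR adjusted p = 0.748), and its likeness to the miR-378a-3p row was 0.11, the same as for miR-378d. The names miR-378f, miR-378h and miR-378j had 12, 5 and 1 counts over the 6 libraries.

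Within the metabolic list, 2 names with values close to the threshold were chosen after their values were seen. miR-499-5p, encoded in an intron of the slow myosin gene MYH7B, had 3130, 1233 and 2989 CPM in QHMM, against 969, 1195 and 615 CPM in STH (log2 fold change 1.35, SE 0.34, edgeR adjusted p = 0.0782). miR-365-3p had 3338, 1317 and 4257 CPM in QHMM, against 1012, 983 and 1560 CPM in STH (log2 fold change 1.29, SE 0.35, edgeR adjusted p = 0.0889). Both passed with DESeq2, with no filter on low counts and without QHMM replicate 2 (log2 fold changes of 1.62 and 1.60). For both names QHMM replicate 2 was the lowest QHMM library, as it was for the 5p arm of miR-378.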
